A study of Homo sapiens with 6 samples.

Results

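The interleukin-1 (IL-1) system was followed through 10 genes: the ligand genes IL1A, IL1B, IL33 and IL18, the antagonist gene IL1RN, the receptor genes IL1R1, IL1R2 and IL1RL1, the co-receptor gene IL1RAP and the adaptor gene MYD88. They were picked by name from the 57819 genes of the deposited table, and all 10 were found. The choice was not blind to the outcome. The set was selected on results of the same comparison, in which IL1RAP was known to be higher and IL1A and IL1B lower after knockdown, so the differences of these 10 genes are given below as a description and without p-values. The cells were IMR90 ER:Ras, an established line of human lung fibroblasts whose introduced Ras oncoprotein, joined to an estrogen receptor domain, is switched on by 4-hydroxytamoxifen (4OHT). Both groups received 200 nM 4OHT for 3 days, a treatment that puts these cells into senescence. They differed in the siRNA: 3 libraries came from cells given the scrambled control siSCR and 3 from cells given an siRNA against sin-lncRNA, a long noncoding RNA. Only 1 cell line and 1 siRNA name appear in the labels, and the knockdown columns carry an ending on that name (si1.3) which the labels do not explain, while the series' design text speaks of siRNAs. The labels do not say that the libraries came from separate cultures, so the spread between them may be technical.

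IL-1 alpha and IL-1 beta are inflammatory cytokines that bind the receptor IL1R1, and the bound receptor signals only after it recruits the co-receptor IL1RAP. The assembled receptors gather MYD88 and IRAK kinases, which lead to NF-kB and MAP kinase activation. In senescent fibroblasts IL-1 alpha is known as an upstream driver of the inflammatory secretory phenotype, and IL1RAP also serves the receptors for IL-33 and IL-36.

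Sequences at the starts of the contrasted ligand and co-receptor genes are given first. Shown are the 250 bases before the first listed start of the ligand genes IL1A (chr2:112784494-112784743, minus strand) and IL1B (chr2:112836780-112837029, minus strand) and of the co-receptor gene IL1RAP (chr3:190513835-190514084, plus strand), from RefSeq on GRCh38.p14, a later build than the hg19 coordinates of the table. Capitals mark matches to the searched motifs.
IL1A: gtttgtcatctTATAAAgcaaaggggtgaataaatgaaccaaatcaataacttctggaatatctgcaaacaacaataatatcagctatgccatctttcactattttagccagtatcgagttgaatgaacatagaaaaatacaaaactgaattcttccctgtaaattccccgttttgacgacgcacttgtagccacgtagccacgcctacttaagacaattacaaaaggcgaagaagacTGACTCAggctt
IL1B: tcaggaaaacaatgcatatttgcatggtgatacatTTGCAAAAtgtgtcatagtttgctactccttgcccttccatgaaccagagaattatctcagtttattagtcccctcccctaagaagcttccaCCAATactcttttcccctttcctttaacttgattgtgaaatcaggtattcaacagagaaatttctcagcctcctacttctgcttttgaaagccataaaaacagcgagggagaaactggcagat
IL1RAP: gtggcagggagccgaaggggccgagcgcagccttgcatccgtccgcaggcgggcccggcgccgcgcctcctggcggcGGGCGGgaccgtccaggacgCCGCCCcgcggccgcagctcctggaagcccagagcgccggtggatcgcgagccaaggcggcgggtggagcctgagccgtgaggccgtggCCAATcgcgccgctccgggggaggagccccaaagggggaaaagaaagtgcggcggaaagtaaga
Of the 10 genes, 9 had a promoter in the RefSeq table, and IL18 had none. The IL1A and IL1B windows had a GC content of 37.6% and 40.0%, with 7 and 1 CpG. The IL1RAP window had 74.8% GC and 33 CpG, against a median of 58.0% and 11 CpG over 27305 promoters. Among the called genes of these 10, base composition did not follow direction in every case. MYD88, called lower, had 64.4% GC and 19 CpG, and IL1R1, called higher, had 52.4% GC and 6 CpG. Promoter composition was not compared with direction over other genes. A match to the AP-1 motif TGANTCA lay 12 to 6 bases before the IL1A start, and 6.60% of all promoters held such a match on either strand. A TATA box match (TATAAA, in 11.1% of promoters) lay farther upstream in the same window. IL1B held a match to the C/EBP motif TTGCNNAA (in 9.13% of promoters) and a CCAAT box (CCAAT, in 33.0%). IL1RAP held 2 GC box matches (GGGCGG, in 42.3%) and a CCAAT box, and MYD88 held 4 GC box matches, of which the last pair overlapped by 1 base. The 250 bases before the first of 4 starts of IL1R1 held none of the 6 motifs. The NF-kB motif, present in 9.57% of all promoters, was not found in the windows of these 9 genes. These are letter matches in a fixed window, and binding was not measured.

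Reads in genes numbered 30271192 to 50913672 in the control libraries and 22117324 to 27882280 in the knockdown libraries, so every knockdown library was shallower. Levels are given as RPM, the reads of a gene scaled to library size as in CPM, and 3 reads, the limit that a count of 0 allows, correspond to 0.0596 to 0.134 RPM, which covers counting error only. The targeted gene, RIPOR3-AS1 (listed as RP4-530I15.6, ENSG00000234693.1), read 3.70, 4.73 and 4.09 RPM in controls and 0.493, 0.640 and 0.534 RPM in knockdowns, or 13.3% of the control mean. Its log2 fold change was -2.86 (SE 0.18, adjusted p = 7.9e-07, limma with Benjamini-Hochberg adjustment). Fibroblast markers summed to 16892 to 18874 RPM in controls and 12963 to 14076 RPM in knockdowns. Of these 8, 3 were called higher, 4 lower and COL6A1 not called, where 41.0% of all genes tested were called. COL1A1 went from 6617 to 3599 RPM and COL1A2 from 3695 to 2167 RPM, and VIM and PDGFRB were also lower. COL3A1 went from 1555 to 2015 RPM, and THY1 and LUM were also higher, so the sum does not stand for every marker. The 7 monocyte and macrophage markers, a cell type known for IL1B, summed to 0.954 to 1.37 RPM in controls and 0.359 to 1.50 RPM in knockdowns, and PTPRC, which encodes the pan-leukocyte antigen CD45, had 7 reads in all controls and 3 in all knockdowns. The 3 endothelial markers found summed to 1.70 to 1.90 RPM in controls and 2.29 to 2.71 RPM in knockdowns, with VWF higher. The 5 epithelial markers summed to 7.26 to 8.08 RPM and 5.60 to 6.40 RPM, with KRT8 lower and KRT5 at 0. The part of these marker differences in the results below was not tested. In RNA from whole cultures, fewer cells of a type and less RNA per cell cannot be told apart.

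Within the IL-1 system the co-receptor and the signalling receptor were higher after knockdown, while both IL-1 ligands and the adaptor were lower. Of the 10 genes, 6 had enough reads to be tested (10 or more normalized reads on average). Among these, IL1RAP and IL1R1 were called higher, IL1A, IL1B and MYD88 were called lower, and IL1RL1 was not called, where a call is an adjusted p under 0.05 in a fit over 19048 genes. Across all genes tested 41.0% were called, 17.5% higher and 23.5% lower. Since the genes were chosen with this comparison known, nothing is read from their calls or from their share of calls. A call among them describes the fit and is no evidence for the difference. The control and knockdown libraries did not overlap for the same 5 genes, against 51.1% of all genes tested. The median log2 fold change was -0.39 over the 6 genes and -0.04 over all genes.

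**Figure D1:**
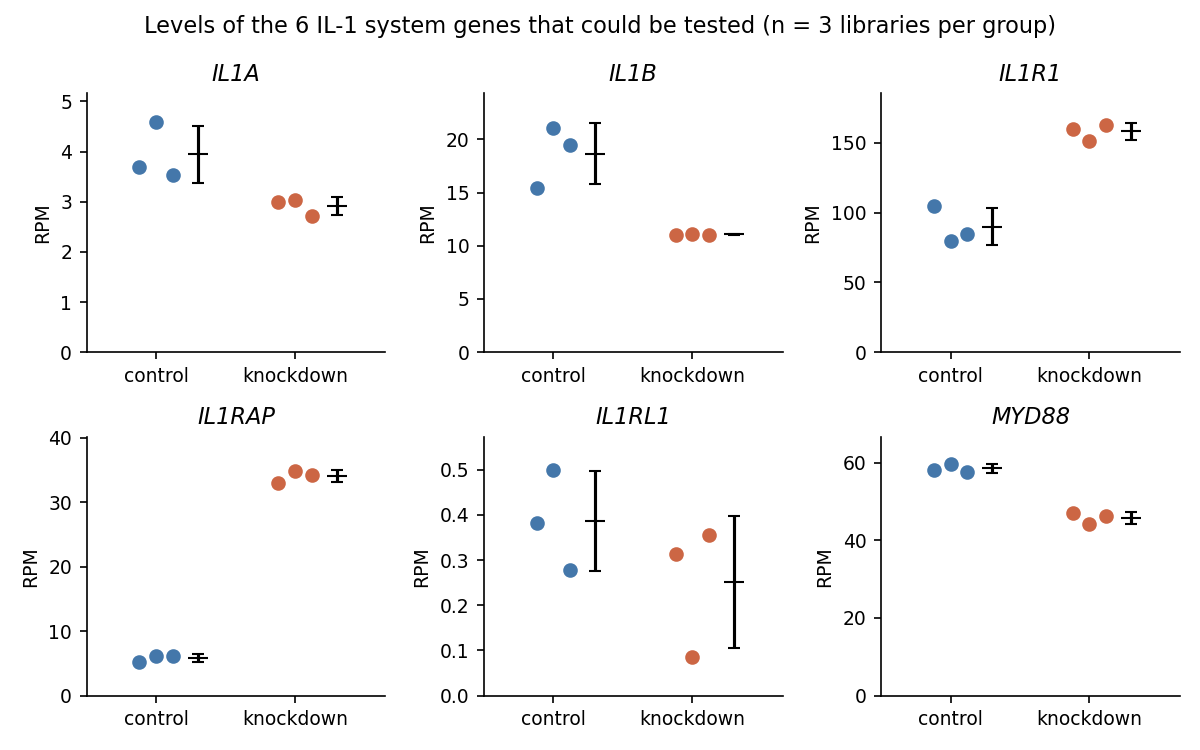
Level of the 6 tested IL-1 system genes in each library, in RPM, with control libraries in blue and sin-lncRNA siRNA libraries in orange. Points are libraries and bars are the mean ± SD (n = 3). Only IL1RL1 has overlapping groups, and IL1RAP rises from 5.20 to 6.20 RPM in controls to 33.0 to 34.8 RPM in knockdowns.

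IL1B (ENSG00000125538.7), which encodes the secreted ligand IL-1 beta, lies on chromosome 2 from 113587328 to 113594480 on the minus strand of hg19. It read 15.4, 21.1 and 19.5 RPM in control replicates 1, 2 and 3 and 11.0, 11.1 and 11.0 RPM in knockdown replicates 1, 2 and 3, from 526, 633 and 982 reads and 246, 261 and 310 reads. Every knockdown library was below every control library, and the knockdown libraries lay close together. The mean went from 18.7 ± 2.91 to 11.1 ± 0.063 RPM (SD, n = 3), 59.3% of the control level. The log2 fold change was -0.74 (SE 0.10).

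IL1A (ENSG00000115008.5), which encodes the mostly cell-associated ligand IL-1 alpha, lies on the same strand of chromosome 2 from 113531492 to 113542167. It read 3.70, 4.60 and 3.54 RPM in controls and 3.00, 3.03 and 2.71 RPM in knockdowns. The groups did not overlap, but the lowest control was only slightly above the highest knockdown library. The mean went from 3.94 ± 0.57 to 2.91 ± 0.18 RPM (SD, n = 3), 73.9% of the control level, with a log2 fold change of -0.42 (SE 0.13). The call of IL1A was lost without control replicate 2 (log2 fold change -0.31), without knockdown replicate 3 (-0.37) and with quantile normalization (-0.37).

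The other ligands and the antagonist were close to undetected in both groups. IL1RN, whose product occupies IL1R1 without signalling, had 0 reads in all 6 libraries, which allows up to 3 reads in each. IL33, the alarmin ligand of IL1RL1, had 2, 4 and 2 reads in controls and 2, 1 and 0 in knockdowns. IL18, the ligand of IL18R1, had 1, 2 and 0 reads in controls and 0, 1 and 4 in knockdowns. No difference was detectable for these 3 genes at this depth.

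IL1A and IL1B open a cluster of 9 protein-coding IL-1 family genes that spans 360.1 kb of chromosome 2 and ends with IL1RN. The other 7 genes had at most 2 reads over the 6 libraries: IL37, IL36A, IL36B, IL1F10 and IL1RN had 0, and IL36G and IL36RN had 1 read in each group. Nearly all reads of the cluster thus fell in its 2 IL-1 ligand genes.

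IL1R1 (ENSG00000115594.7), the receptor that carries the IL-1 signal, lies on chromosome 2 from 102681004 to 102796334 on the plus strand. It read 104.8, 79.9 and 84.5 RPM in controls and 159.8, 151.5 and 162.9 RPM in knockdowns. All knockdown libraries were well above all controls, and control replicate 1 was the highest control. The mean went from 89.7 ± 13.2 to 158.1 ± 5.89 RPM (SD, n = 3), a ratio of 1.76, with a log2 fold change of 0.83 (SE 0.08).

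The decoy receptor IL1R2, which binds IL-1 without signalling, had 3, 1 and 4 reads in controls and 0, 2 and 3 in knockdowns and was not tested. IL1RL1, the IL-33 receptor ST2, read 0.382, 0.499 and 0.278 RPM in controls and 0.314, 0.0854 and 0.356 RPM in knockdowns, from 42 and 19 reads in all. These groups overlapped, and its log2 fold change of -0.71 (SE 0.49) was not called. It was -0.13 without knockdown replicate 2 and -0.21 with an offset of 5 reads. IL1RL1 overlaps IL18R1 on the same strand, and reads in the shared stretch may not separate the pair.

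IL1R2, IL1R1, IL1RL2, IL1RL1, IL18R1 and IL18RAP form a cluster of 6 protein-coding genes over 460.7 kb of the plus strand of chromosome 2. IL1R1 and IL18R1 were both called higher (log2 fold changes 0.83 and 0.92). IL1RL2 (-0.54, SE 0.25) and IL1RL1 (-0.71, SE 0.49) were not called, so a fall of these neighbours was not shown. IL18RAP, the partner chain of the IL-18 receptor, had 5 reads in controls and 1 in knockdowns and was not tested.

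IL1RAP (ENSG00000196083.5), the co-receptor shared by the IL-1, IL-33 and IL-36 receptors, lies on chromosome 3 from 190231840 to 190375843 on the plus strand. It read 5.20, 6.19 and 6.20 RPM in controls, from 177, 186 and 312 reads. In knockdowns it read 33.0, 34.8 and 34.3 RPM, from 737, 816 and 962 reads. The lowest knockdown library was far above the highest control, although the knockdown libraries were shallower. The mean went from 5.86 ± 0.58 to 34.0 ± 0.92 RPM (SD, n = 3), a ratio of 5.81, with a log2 fold change of 2.54 (SE 0.08). This was the 7th highest log2 fold change of 19048 genes. With every library thinned to the depth of the shallowest, it was 2.60. The pseudogene GCNT1P3 and the small RNA gene RN7SKP296 lie within IL1RAP on the same strand and had 1 read each.

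The ligands and the co-receptor were then set against each other within each library, which removes library scaling from the comparison. The log2 level of IL1RAP minus the mean log2 level of IL1A and IL1B was -0.54, -0.67 and -0.42 in controls and 2.52, 2.58 and 2.64 in knockdowns. In controls the co-receptor had fewer reads than the geometric mean of the ligands, and in all knockdown libraries it had more. The group means were -0.54 ± 0.12 and 2.58 ± 0.064 (SD, n = 3), a difference of 3.12 on the log2 scale. No test was made, because the contrast was chosen for its values.

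Levels of different genes were compared per length, in reads per kilobase of merged exons on the same depth scale (RPKM), with lengths from GENCODE 29. The lengths were 2124 nt for IL1A, 3096 nt for IL1B, 7083 nt for IL1R1, 11558 nt for IL1RAP, 5746 nt for IL1RL1 and 3989 nt for MYD88. IL1RAP has 19 annotated transcripts, and its merged length sums exons that no single transcript need hold, so its RPKM depends on this choice. Its changes between groups do not.

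On the RPKM scale, IL1RAP stood at 3.04%, 4.75% and 4.50% of IL1R1 in controls and at 12.7%, 14.1% and 12.9% in knockdowns. The ratio of the co-receptor to its receptor was 3.23-fold higher after knockdown, with no overlap between groups. Relative to IL1B, IL1RAP stood at 9.01%, 7.87% and 8.51% in controls and at 80.3%, 83.7% and 83.1% in knockdowns. Relative to IL1A, it stood at 25.8%, 24.8% and 32.2% in controls and at 202.1%, 211.2% and 232.6% in knockdowns. On this scale IL1RAP thus passed IL1A and stayed below IL1B in all 3 knockdown libraries. Both rankings depend on the merged lengths: in RPM, IL1RAP was above IL1A already in controls (means 5.86 against 3.94). In knockdowns its RPM was above that of IL1B as well (means 34.0 against 11.1). The ratio of IL1B to IL1A was 3.27 ± 0.47 in controls and 2.61 ± 0.16 in knockdowns (SD, n = 3). The groups did not overlap, but the lowest control (2.86) was only slightly above the highest knockdown library (2.80). IL1A had 67, 71 and 76 reads in knockdowns, and the gap was not set against counting error.

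**Figure D2:**
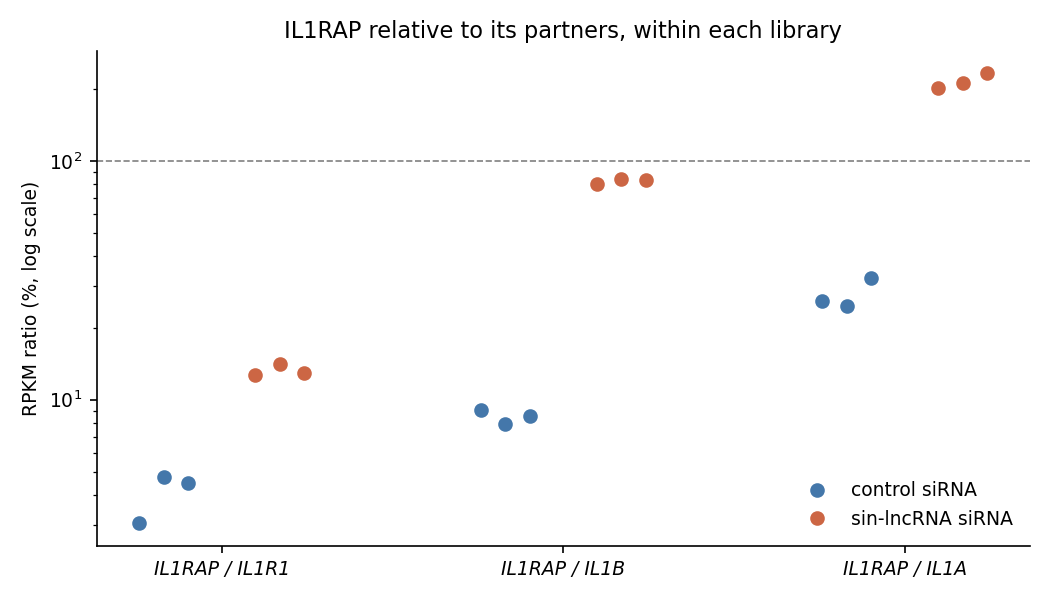
Level of IL1RAP as a percentage of IL1R1, IL1B and IL1A in each library, on the RPKM scale with a log axis. Points are libraries, blue for control and orange for sin-lncRNA siRNA. The dashed line marks equal RPKM, and where points lie relative to it depends on the merged exon lengths. Every knockdown library lies above every control, and the ratio to IL1A passes the line.

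MYD88 (ENSG00000172936.8), the adaptor that couples IL-1 and Toll-like receptors to IRAK kinases, lies on chromosome 3 from 38179969 to 38184513 on the plus strand. It read 58.2, 59.7 and 57.6 RPM in controls and 47.0, 44.1 and 46.2 RPM in knockdowns. The groups did not overlap, and the spread within each was small. The mean went from 58.5 ± 1.10 to 45.7 ± 1.53 RPM (SD, n = 3), 78.2% of the control level, with a log2 fold change of -0.35 (SE 0.05). Relative to IL1R1 per length, MYD88 went from 98.5%, 132.7% and 121.1% in controls to 52.2%, 51.6% and 50.3% in knockdowns.

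The order of the levels per length therefore differed between the groups. The place of IL1RAP in this order depends on the merged exon lengths. In controls MYD88 (14.7 ± 0.28 RPKM) and IL1R1 (12.7 ± 1.87 RPKM) overlapped at the top. IL1B (6.03 ± 0.94), IL1A (1.86 ± 0.27), IL1RAP (0.507 ± 0.050) and IL1RL1 (0.067 ± 0.019 RPKM) followed, each apart from its neighbours (SD, n = 3). In knockdowns IL1R1 stood first at 22.3 ± 0.83 RPKM, MYD88 second at 11.5 ± 0.38 RPKM and IL1B next at 3.58 ± 0.020 RPKM. IL1RAP came after it at 2.95 ± 0.080 RPKM, above IL1A at 1.37 ± 0.084 RPKM and IL1RL1 at 0.044 ± 0.025 RPKM, again with no overlap between neighbours.

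**Figure D3:**
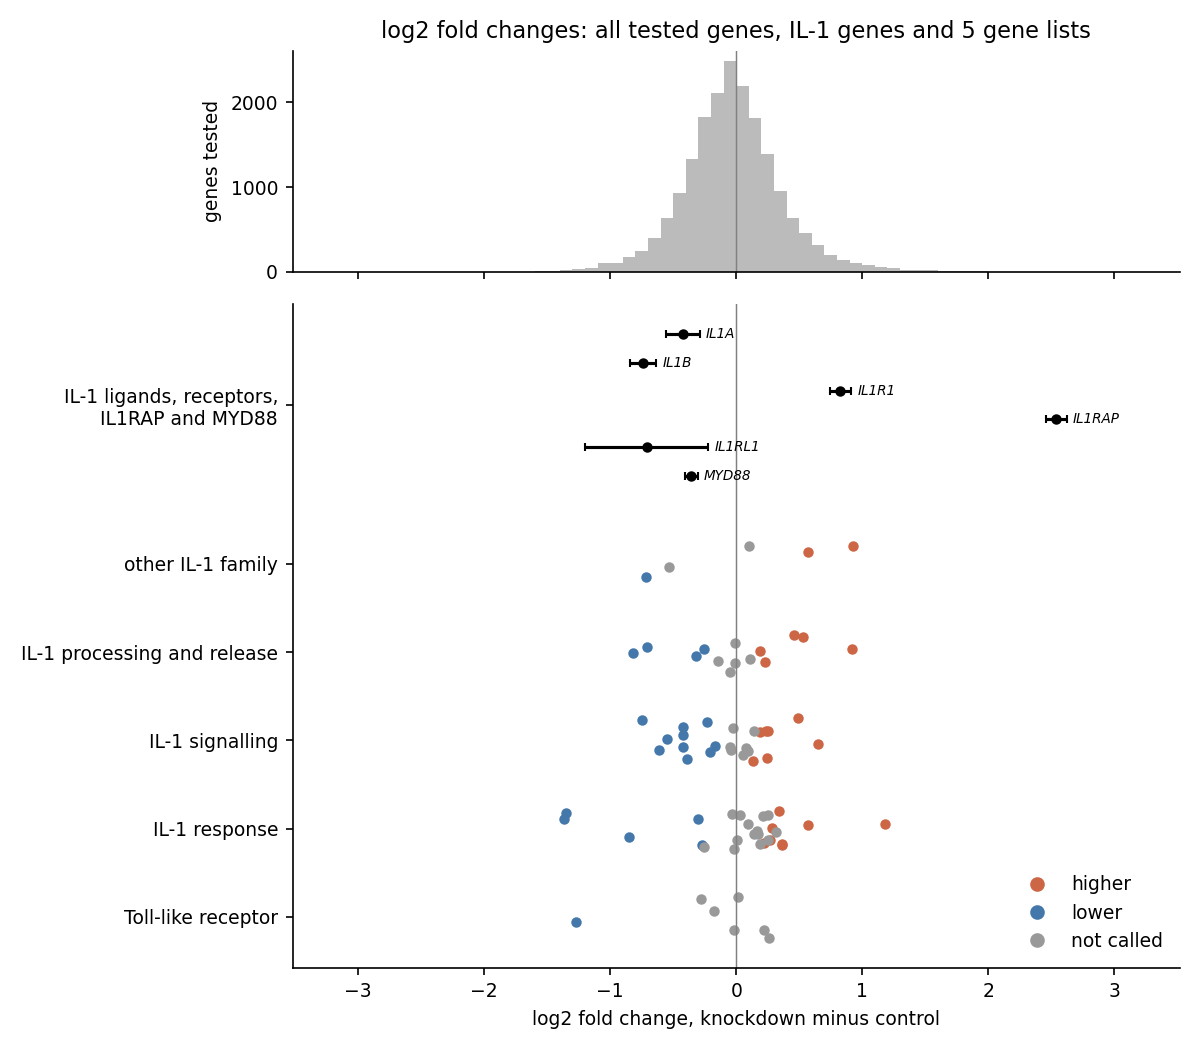
Log2 fold changes, knockdown minus control. The upper panel is a histogram over all 19048 tested genes, and the lower panel shows the 6 tested IL-1 system genes in black (bars are SE) and the tested genes of 5 related lists as points, orange for called higher, blue for called lower and grey for not called. IL1RAP at 2.54 lies far to the right of every gene in the 5 lists, whose highest value is 1.18.

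Among 13 other members of the IL-1 family, 5 were tested, of which 2 rose, 1 fell and 2 were not called, a called share of 60.0% against 41.0% of all genes. The median log2 fold change was 0.10 in the list and -0.04 over all genes. IL18R1, the binding chain of the IL-18 receptor, rose from 1.77 ± 0.24 to 3.35 ± 0.32 RPM (log2 fold change 0.92, SE 0.15, adjusted p = 0.000597, limma with Benjamini-Hochberg adjustment). IL18BP, which encodes a secreted inhibitor of IL-18, rose from 2.93 ± 0.17 to 4.37 ± 0.61 RPM (log2 fold change 0.57, limma adjusted p = 0.00543). IL18BP lies opposite NUMA1, which had 22154 reads against its 652, and the strand setting of the counting is not given in the sources used here, so its value is uncertain. SIGIRR, a receptor of the family that dampens IL-1 and Toll-like signalling, fell from 6.95 ± 1.91 to 4.13 ± 0.47 RPM (log2 fold change -0.71, limma adjusted p = 0.00951). The SIGIRR call was lost in a variance model without an intensity trend (limma adjusted p = 0.0534), and its log2 fold change was -0.46 with the GC and length trend removed. The neuronal relative IL1RAPL1 read 12.7 ± 1.38 and 13.6 ± 0.30 RPM and was not called.

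Genes for the processing and release of IL-1 moved in both directions: of 16 listed, 14 were tested, 5 rose, 4 fell and 5 were not called (64.3% called against 41.0% of all genes), with a median log2 fold change of -0.01 against -0.04 over all genes. CASP1, the protease that matures IL-1 beta, read 13.6, 13.9 and 14.0 RPM in controls and 25.6, 25.4 and 27.5 RPM in knockdowns, so it rose while its substrate gene IL1B was lower (log2 fold change 0.92, SE 0.06, limma adjusted p = 1.56e-06). CASP1 shares its strand with the overlapping gene CARD16, which had 3005 reads against its 3522, and the pair may not be fully separated. PYCARD, the adaptor that joins inflammasome sensors to caspase-1, read 9.34, 6.53 and 7.73 RPM in controls and 4.75, 4.74 and 4.77 RPM in knockdowns and fell (log2 fold change -0.71, limma adjusted p = 0.00106). The sensor genes NLRP3 and AIM2 had too few reads to be tested. The sensor gene NLRP1 read 99.6 ± 8.85 RPM in controls and 98.9 ± 9.12 RPM in knockdowns and was not called (log2 fold change -0.01). NLRC4 was tested and not called either.

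CAPN1 and CAPNS1, the large and small subunits of calpain 1, a protease that cleaves IL-1 alpha, fell as well. CAPN1 went from 218 ± 10.2 to 123 ± 3.58 RPM (log2 fold change -0.82, limma adjusted p = 5.43e-07) and CAPNS1 from 386 ± 5.38 to 309 ± 3.80 RPM (-0.32, limma adjusted p = 6.57e-05). With the trend on GC content and length removed, the CAPNS1 difference shrank to -0.15 (limma adjusted p = 0.04998). The calpain 2 gene CAPN2 also fell, with a log2 fold change of -0.25. The pore-forming protein gene GSDME (listed as DFNA5) rose from 47.1 ± 0.76 to 64.7 ± 3.34 RPM (log2 fold change 0.46, limma adjusted p = 5.58e-05). CASP5, a caspase of the noncanonical inflammasome, was higher at 2.14 ± 0.27 against 1.49 ± 0.26 RPM (log2 fold change 0.53, limma adjusted p = 0.0359), but that call was lost without control replicate 1 (0.39), without knockdown replicate 1 (0.53), without knockdown replicate 3 (0.44) and without a filter on low values (0.53).

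All 24 listed genes that act downstream of the receptor were tested, and 7 rose, 10 fell and 7 were not called (70.8% called against 41.0% of all genes), with a median log2 fold change of -0.03 against -0.04 over all genes. The 24 genes all averaged 50 or more normalized reads, as did 13 of the 14 tested processing and release genes. The 41.0% also covers genes nearer the filter of 10 reads, so these shares are not matched for level. The kinase gene IRAK1, which acts directly after MYD88, fell from 231 ± 13 to 158 ± 10.9 RPM (log2 fold change -0.55, limma adjusted p = 3.74e-05). TOLLIP, which encodes an inhibitory partner of the receptor complex and of IRAK1, fell from 44.7 ± 2.07 to 26.6 ± 1.23 RPM (-0.75, limma adjusted p = 4.34e-06). PELI1, a ubiquitin ligase of the same complex, fell from 14.0 ± 0.53 to 9.15 ± 1.02 RPM (-0.61, limma adjusted p = 0.000319). Its relative PELI2 rose from 10.7 ± 0.82 to 15.0 ± 1.21 RPM (0.49, limma adjusted p = 0.000973), so these 2 related ligase genes moved in opposite directions. MAPK8, which encodes the kinase JNK1, rose from 27.3 ± 0.58 to 42.9 ± 2.34 RPM (0.65, limma adjusted p = 9.64e-06). TAB2, an adaptor of the kinase TAK1, rose from 88.9 ± 0.65 to 106 ± 4.08 RPM (0.25, limma adjusted p = 0.0012). The NF-kB subunit gene RELA read 75.9 ± 1.69 and 73.1 ± 1.60 RPM and was not called. The subunit gene NFKB1 was called higher (0.24, limma adjusted p = 0.00814). IKBKB and IKBKG, also on this list, were called lower (-0.42 and -0.39).

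Genes known to respond to IL-1 in fibroblasts moved in both directions: of 30 listed, 27 were tested, 8 rose, 5 fell and 14 were not called (48.1% called, close to the 41.0% of all genes), with a median log2 fold change of 0.18 against -0.04 over all genes. Without an intensity trend in the variance model, 8 were called, 4 in each direction. ICAM1, a leukocyte adhesion molecule, read 39.8, 41.1 and 39.8 RPM in controls and 84.0, 104.9 and 86.6 RPM in knockdowns and had the largest rise of the list (log2 fold change 1.18, SE 0.08, limma adjusted p = 1.05e-06). TNFAIP3, which encodes the NF-kB inhibitor A20, rose from 5.69 ± 0.88 to 8.41 ± 0.32 RPM (0.57, limma adjusted p = 0.00207). The monocyte attractant gene CCL2 rose from 99.6 ± 14.5 to 128 ± 12.2 RPM (0.36, limma adjusted p = 0.00989), a call that was lost without an intensity trend (limma adjusted p = 0.0698). LIF, a cytokine of the IL-6 family, fell from 278 ± 8.75 to 231 ± 16.2 RPM (-0.27, limma adjusted p = 0.0021).

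CXCL5, a neutrophil chemokine, was lower at 1.17 ± 0.43 against 2.10 ± 0.59 RPM (log2 fold change -0.85, limma adjusted p = 0.0373), but its groups overlapped. It was no longer called without control replicate 2 (-0.78), control replicate 3 (-0.68), knockdown replicate 1 (-0.55) or knockdown replicate 3 (-0.91), and without an intensity trend. PTGS2, the prostaglandin synthase COX-2, was lower at 5.52 ± 0.39 against 6.83 ± 0.51 RPM (log2 fold change -0.30, limma adjusted p = 0.0308). It was no longer called without control replicate 2 (-0.24), control replicate 3 (-0.33), knockdown replicate 1 (-0.27) or knockdown replicate 3 (-0.28), with quantile normalization (-0.25) and after thinning (-0.27). The widest falls of this list were in weakly expressed genes named after their values were seen. CXCL3, another neutrophil chemokine, fell from 2.26 ± 0.22 to 0.888 ± 0.23 RPM (log2 fold change -1.35, limma adjusted p = 0.000396). CSF3, which encodes the granulocyte growth factor G-CSF, fell from 1.26 ± 0.14 to 0.498 ± 0.21 RPM (-1.36, limma adjusted p = 0.00328). Neutrophil chemokines did not all fall. CXCL8 (listed as IL8), with a higher level, rose from 23.4 ± 0.84 to 29.7 ± 4.26 RPM (0.34, limma adjusted p = 0.0127). IL6, a main cytokine of the secretory phenotype, read 1.85, 2.10 and 1.85 RPM in controls and 2.02, 2.99 and 1.99 RPM in knockdowns and was not called (limma adjusted p = 0.291).

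**Figure D4:**
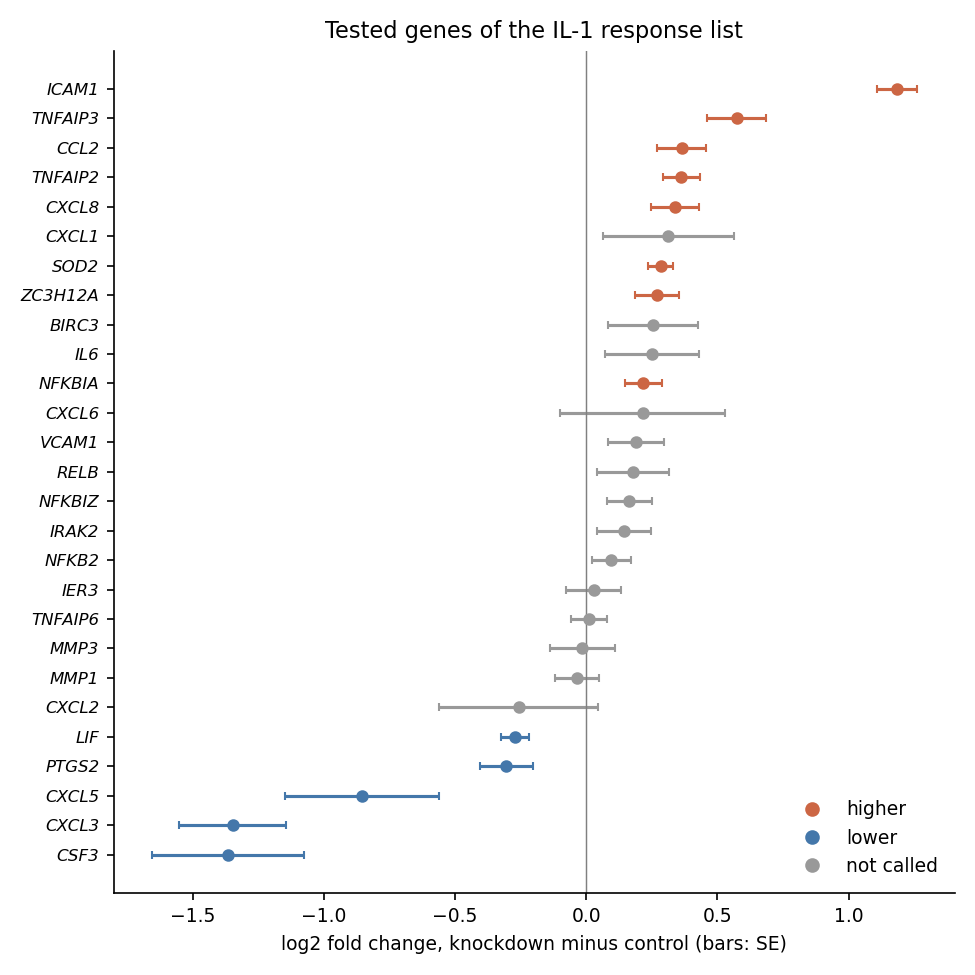
Log2 fold changes, knockdown minus control, of the 27 tested genes of the IL-1 response list, with bars for SE. Orange marks genes called higher, blue genes called lower and grey genes not called. ICAM1 at 1.18 is the highest and CSF3 at -1.36 the lowest.

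Most Toll-like receptors share the MYD88 route with the IL-1 receptors, but not every receptor or adaptor gene of this list acts on it. Of 14 listed, 7 were tested, 1 fell and 6 were not called (14.3% called against 41.0% of all genes), with a median log2 fold change of -0.02. The gene that fell was TLR5, the flagellin receptor, named after its value was seen, at 0.792 ± 0.15 RPM in controls and 0.337 ± 0.18 RPM in knockdowns (log2 fold change -1.27, limma adjusted p = 0.0169). Without control replicate 1 it was not called (-1.14, limma adjusted p = 0.061), and with an offset of 5 reads its log2 fold change was -0.80.

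The profiles nearest to IL1RAP over the 6 libraries, among 15110 genes with a mean of at least 50 normalized reads, were those of CYP1B1, CADM1 and ZNF322, with Pearson's r between 0.9994 and 0.9997. CYP1B1, a cytochrome P450, went from 5.39 to 39.3 RPM, and CADM1, a cell adhesion molecule, from 97.8 to 262.8 RPM. ZNF322, a zinc finger gene, went from 12.03 to 14.9 RPM. For IL1B the nearest were CAMSAP1, ALDH9A1 and SBDS, with r between 0.997 and 0.998 and log2 fold changes of -0.13, -0.26 and -0.28. An r above 0.99 was reached by 300 genes with IL1RAP and by 40 with IL1B. These values describe 6 libraries that share the same split into groups, and r does not weigh the size of a change.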

How the data were processed

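RNA was measured in 6 libraries (3 per group). Per the labels' protocols, polyA RNA was read as single 50 bp reads. The submitters' processing notes name Bowtie2, featureCounts and hg19, without versions; the strand setting is not given in the sources used here. The authors deposited a table of log2 values: as worked out from the values, log2 CPM, with 0.5 added to the reads and an effective library size (library totals times 0.989 to 1.01), and undoing this gave whole reads for 100% of values within 0.01. RPM were computed from those reads.

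The deposited log2 values were fitted with limma 3.58.1 under R 4.3.3 (lmFit, then eBayes allowing a trend with intensity), group being the sole term, and tested two-sided. Of all genes, 19048 averaged 10 or more normalized reads and were tested. P-values were adjusted by Benjamini-Hochberg and called at 0.05. The same offset was added at every depth, and the knockdown libraries were shallower. It therefore pulls fold changes of weakly expressed genes towards a positive value. Falls of such genes come out too small, and small rises too large. With an offset of 5 reads the median log2 fold change over all genes tested was -0.01, against -0.04. With 3 against 3 libraries an exact permutation test cannot go below p = 0.1, so none was made.

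The 10 genes, the lists and the rules were chosen with earlier results of these data known. Named were the 10 genes, the target, up to 3 largest rises and 3 largest falls of each list (adjusted p under 0.05, mean of at least 50 normalized reads), and the 3 profiles nearest to IL1RAP and to IL1B. Some genes, among them IL1RAPL1, CAPN2, NLRP1, NLRC4, RELA, NFKB1, IKBKB, IKBKG, IL6, CXCL3, CXCL8, CSF3 and TLR5, were named outside this rule. RefSeq promoters and GENCODE 29 lengths were matched by gene name and gene ID. Replicates of a group differed by more than sampling noise (chi-square per degree of freedom 2.87 to 11.0). Alternatives covered filter, offset, scaling, variance model, depth, GC and length, replicate block and leaving out each library.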

Additional observations from a re-analysis of the deposited data

How the results depend on the processing

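IL1B, IL1R1, IL1RAP and MYD88 kept their direction and call in all 18 alternatives to the fit: log2 fold changes ranged from -0.87 to -0.65, 0.75 to 0.94, 2.46 to 2.60 and -0.39 to -0.31, respectively. IL1A kept its direction in all 18 and its call in 15 (-0.50 to -0.31). IL1RL1 was not called in any of 17 (-1.04 to -0.13). The alternatives reuse the comparison on which the 10 genes were chosen, so a kept call adds no support. IL1RAP minus the ligands ranged from 3.04 to 3.22 over 12 alternatives, and the target lay between -2.97 and -2.50. When an absolute log2 difference of 1 or more was also required, 1 of the 10 genes (IL1RAP) and 561 of all genes were called. An adjusted p under 0.01 left 5195 of 7805 genes. Leaving out a library gave 5803 (without control replicate 3) to 7330 calls over all genes and 4 to 5 of the 10 genes. Leaving out a library gave 3 calls in the other IL-1 family each time, 7 to 9 in processing and release, 12 to 15 in signalling and 9 to 14 in the response list. The response list had 8 calls without an intensity trend, and the cause was not tested. The Toll-like list had 2 calls without a filter on low values, where more of its genes were tested, 2 after removal of the GC and length trend, and 0 with a mean of at least 50 normalized reads, where 4 of its genes were tested by limma and 1 had an unadjusted p under 0.05. Leaving out a library gave 0 (limma, without control replicate 1, 1 at an unadjusted p under 0.05) to 3 (without control replicate 2) calls there. Over all genes, the median difference was 0.08 when no filter was used, in place of -0.04.

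Deviations of same-numbered libraries correlated at -0.15, -0.18 and 0.07, and those of differently numbered libraries at -0.08 to 0.20. A pairing by replicate number was not seen in these values, but 3 libraries per group cannot settle whether the experiment was paired. Under a replicate block, 6454 genes were called, 5 of the 10 genes, and 3, 9, 12, 11 and 1 of the other family, processing, signalling, response and Toll-like lists. Depth limits IL1RN, IL1R2, IL33 and IL18, which had at most 4 reads in a library.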
